A study of Mus musculus with 2 samples.

Results

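Iron handling in regenerating mouse liver was followed through 10 genes: the hepcidin gene Hamp, its regulator Bmp6, the bone morphogenetic protein (BMP) targets Id1 and Smad6, the transferrin receptor genes Tfrc and Tfr2, the transferrin gene Trf, the iron transporter genes Slc11a2 and Slc40a1, and the ferritin heavy chain gene Fth1. They were chosen by gene symbol, taking every probe set of the array whose annotation gave that symbol and no other. This gave 21 probe sets for 9 of the 10 genes, out of 18193 genes with such a probe set on the array. Trf had no probe set under its symbol alone and has no value here. Whole liver of BALB/c nude mice, a strain that lacks a thymus, was collected at day 3 and at day 0 after a surgical partial hepatectomy of 70%, and the submitters label day 0 as the control. Each day had 1 Affymetrix array of total RNA. The labels used here give no sex or age, nor the number of animals behind a sample. A single array per day leaves no replicate spread, so differences carry neither a p-value nor a standard error, and day, surgery and animal cannot be told apart.

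Iron in plasma travels on transferrin, enters cells through transferrin receptor 1 (Tfrc), leaves endosomes through DMT1 (Slc11a2), is stored in ferritin (Fth1 and a light chain) and leaves cells through ferroportin (Slc40a1). Hepatocytes secrete hepcidin, a peptide hormone that binds ferroportin and causes its degradation, so that less iron enters the plasma. Hepcidin transcription is driven by BMP6 and BMP2 from sinusoidal endothelial cells, acting through SMAD proteins with hemojuvelin, HFE and transferrin receptor 2 as partners, and by interleukin 6 acting through STAT3.

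The values are MAS5 signals, a linear brightness per probe set in arbitrary units. A signal counted as measured above a common floor of 68.3, the higher of the array medians, and lower signals were set to that floor before ratios were formed. A gene with several probe sets was given the value of its brightest, and the words higher and lower are used of genes that differed by at least 2-fold. Of 12634 genes above the floor on at least 1 array, 12.9% were at least 2-fold higher at day 3 and 5.62% at least 2-fold lower. Among the 9 iron genes, 2 were higher (Id1 and Tfrc), 1 was lower (Hamp) and 6 differed by less than 2-fold. Their median log2 ratio, day 3 over day 0, was −0.14, against 0.08 for all genes analysed. As a measure of noise within the arrays, the log2 ratios of probe sets that share a gene scattered with an SD of 0.435 (over 4380 genes). That SD does not cover differences between animals. Of 8 hepatocyte markers, 7 had a probe set, and all 7 were above the floor on both arrays. As deposited, all 7 had log2 ratios below 0 (median −0.37, from −0.64 to −0.33).

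**Figure D1:**
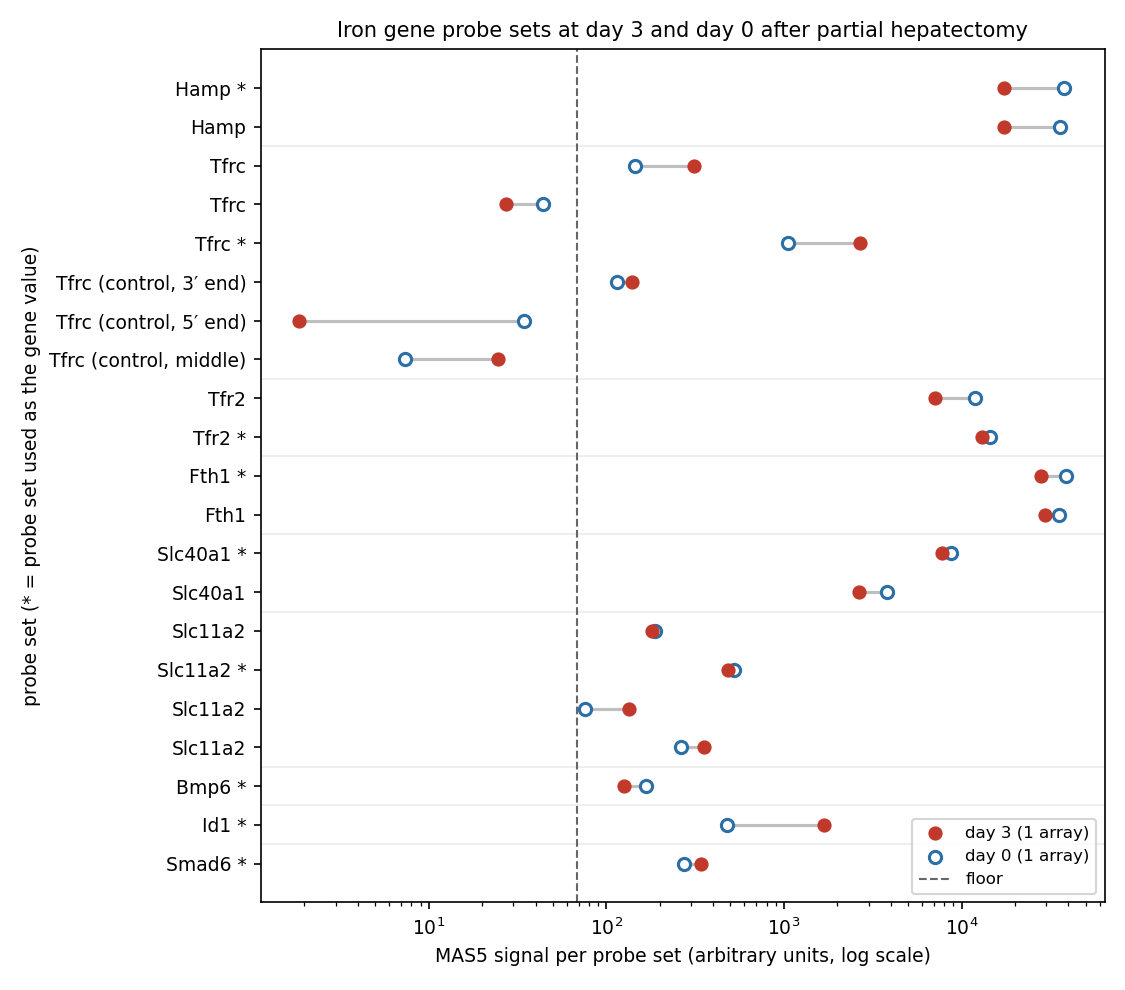
MAS5 signal (arbitrary units, log scale) of all 21 probe sets of the iron genes, with filled points for day 3 and open points for day 0, 1 array each, and the floor of 68.3 as a dashed line. Both Hamp probe sets lie lower at day 3, Id1 and the brightest Tfrc probe set lie higher, and 3 Tfrc probe sets lie under the floor on both arrays.

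Hamp, which encodes hepcidin, had a signal of 17362 at day 3 and 37710.2 at day 0 on its brightest probe set, a log2 ratio of −1.12 (2.17-fold lower). The other Hamp probe set, marked on the array as prone to cross-hybridisation, had 17280 at day 3 and 35876 at day 0, a log2 ratio of −1.05. The probe sets thus differed from each other by far less than the days did. A lower ratio than that of Hamp was seen in 4.21% of all genes analysed. Among the 1310 genes with a mean log2 signal of at least 12, which had a median log2 ratio of −0.21, 8.47% were at least 2-fold lower and 3.59% at least 2-fold higher. As deposited, Hamp was therefore lower by more than the hepatocyte markers, whose lowest ratio was that of F9, a coagulation factor gene (−0.64). In whole liver, fewer cells of a type and less RNA per cell cannot be told apart. After quantile normalisation, loess or scaling to the hybridisation spikes the log2 ratio of Hamp was −0.81, −0.84 and −0.83, short of 2-fold. The hepatocyte markers were not followed through these scalings.

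Mice carry a second hepcidin gene, Hamp2, which lies next to Hamp on chromosome 7 with only the pseudogene Usf2-ps1 between them in the RefSeq table. Its peptide is not known to share the iron-regulating action of hepcidin. Hamp2 had a signal of 773 at day 3 and 4972 at day 0, a log2 ratio of −2.69 (6.43-fold lower), on a probe set that is also marked as prone to cross-hybridisation. A further Hamp2 probe set was under the floor on both arrays (46.6 at day 3 and 24.7 at day 0). How much of the Hamp2 signal comes from Hamp RNA was not tested.

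The 250 bases before the annotated starts of Hamp and Hamp2 are shown because they hold, or lack, the sequence elements through which BMP and STAT3 signals are known to act on hepcidin. Both are on the minus strand and come from RefSeq, build GRCm38.p6, Hamp from chr7:30944030-30944279 and Hamp2 from chr7:30924182-30924431. Capitals mark the BMP-responsive element GGCGCC, or the bases aligned with it, and the STAT-type site TTCNNNGAA.
Hamp: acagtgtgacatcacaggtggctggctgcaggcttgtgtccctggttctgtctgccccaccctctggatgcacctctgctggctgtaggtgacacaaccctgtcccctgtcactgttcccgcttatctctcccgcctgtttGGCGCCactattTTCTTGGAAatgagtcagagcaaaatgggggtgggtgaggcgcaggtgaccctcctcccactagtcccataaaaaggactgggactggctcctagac
Hamp2: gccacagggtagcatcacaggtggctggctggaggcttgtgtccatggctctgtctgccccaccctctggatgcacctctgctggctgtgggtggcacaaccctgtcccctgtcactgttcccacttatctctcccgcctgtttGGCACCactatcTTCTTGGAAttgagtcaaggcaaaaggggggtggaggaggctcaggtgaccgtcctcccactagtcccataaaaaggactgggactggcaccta

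A global alignment paired 247 of the 250 bases, of which 91.9% were identical. The GGCGCC of Hamp starts 109 bases before the annotated start, and Hamp2 differs within it by G145A (Hamp base first, position counted from 1 at the 5′ end of the printed Hamp sequence). The STAT-type site starts 97 bases before the start of Hamp, and the aligned 9 bases are the same in Hamp2. Both motifs read the same on either strand as written. Over all 32851 promoter windows of the RefSeq table, each of 250 bases before to 50 after a start, 11.9% held GGCGCC, 8.30% held TTCNNNGAA and 0.645% held both. Of the 6 iron genes with a window, Hamp held both and Tfrc held GGCGCC in 1 of its windows, 89 bases before that start. Those of Tfr2, Smad6, Bmp6 and Fth1 held neither motif. A match describes letters only and does not show binding.

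Upstream of Hamp, 3 BMP ligand genes were analysed, and none reached 2-fold as deposited. Bmp6 had a signal of 125 at day 3 and 167 at day 0 on its single probe set, a log2 ratio of −0.42. Bmp2, the other endothelial ligand of this pathway, had 623 at day 3 and 616 at day 0, a log2 ratio of 0.02. Bmp4, a further ligand of the family, had 239 at day 3 and 469 at day 0, a log2 ratio of −0.97. Bmp4 passed 2-fold after median centring (−1.03), loess (−1.15) and quantile normalisation (−1.22), but had −0.68 with spike scaling. Raising the floor to the 75th percentile left −0.15, a bound because the day 3 signal of Bmp4 lies under that higher floor. The size of the Bmp4 ratio thus depends on the processing. The size of the Bmp6 ratio is close to the probe set SD of 0.435, and it ran from −0.65 to −0.13 over the alternative settings. The sinusoidal endothelial markers, from the cells known to make both ligands, had 5 of 10 log2 ratios below 0 and a median of −0.14. Their summed signal was 9334 at day 3 and 12399 at day 0, and their part in the Bmp6 value was not tested.

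Tfr2, the hepatocyte receptor that senses transferrin-bound iron, had 13054 at day 3 and 14406 at day 0 on its brightest probe set, a log2 ratio of −0.14. Its other probe set had 7062 at day 3 and 11906 at day 0, a log2 ratio of −0.75. Both Tfr2 probe sets were thus below 0 as deposited, and neither reached 2-fold. The brightest is marked as prone to cross-hybridisation. After quantile normalisation, loess and scaling to the hybridisation spikes it had log2 ratios of 0.04, 0.07 and 0.15, so its direction turns with the scaling. The other probe set was not followed through these scalings.

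Id1, an inhibitor of basic helix-loop-helix transcription factors and a direct target of BMP signalling, had a signal of 1680.35 at day 3 and 480.5 at day 0. Its log2 ratio was 1.81 (3.50-fold higher), a ratio exceeded by 4.16% of all genes analysed. Id1 and Hamp thus lay on opposite sides of 2-fold, although both are known targets of the BMP and SMAD pathway in liver. Id1 had 1 probe set, of a kind marked as shared between transcripts, so no other probe set bears on it. Smad6, the inhibitory SMAD that BMP signalling induces, had 340.0 at day 3 and 273.5 at day 0, a log2 ratio of 0.31, which ran from 0.06 after quantile normalisation to 0.61 with spike scaling.

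The wider list of BMP target genes held 9, all of them analysed: 1 was higher (Id1), 1 lower (Hamp) and 7 under 2-fold. The median log2 ratio was 0.31, and it was 0.03 without shared probe sets, 0.06 after quantile normalisation and 0.61 with spike scaling. Among those 7, Id3, a relative of Id1, had 3238 at day 3 and 1786 at day 0, a log2 ratio of 0.86. Atoh8, a helix-loop-helix factor known to promote hepcidin transcription, had 123 at day 3 and 214 at day 0, a log2 ratio of −0.80. Smad7, the other inhibitory SMAD, had 268 at day 3 and 319 at day 0, a log2 ratio of −0.25. Its dimmer probe set had 0.26, so the Smad7 probe sets disagree in sign. The 9 targets therefore did not share a direction, with 5 ratios above 0 and 4 below on their brightest probe sets as deposited.

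Of the 23 genes listed for hepcidin and its BMP sensing, 19 were analysed. Fgl1 was higher, Hamp and Hamp2 were lower and 16 were under 2-fold (median log2 ratio −0.10). Bmper is among the 16 as a bound, being above the floor at day 3 only (104.8, against 50.8 at day 0). Fgl1 encodes a secreted hepatocyte protein reported in mice to restrain hepcidin. It had 25656 at day 3 and 8363 at day 0, a log2 ratio of 1.62 (3.07-fold higher), and it is the gene of this list with the highest ratio. Tmprss6 encodes matriptase-2, a hepatocyte protease that lowers hepcidin by cleaving hemojuvelin. It had 7229 at day 3 and 13727 at day 0, a log2 ratio of −0.93, just short of 2-fold as deposited. The Tmprss6 ratio was −0.76 after quantile normalisation, −0.75 after loess and −0.63 with spike scaling. Hjv, the hemojuvelin gene, had 3738 at day 3 and 2750 at day 0, a log2 ratio of 0.44, and Hfe, of the hemochromatosis protein, had probe sets at log2 ratios of −0.55 and 1.63 that disagree.

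On the interleukin 6 side, 6 of 7 listed genes were analysed, with 1 higher, 1 lower and 4 under 2-fold (median log2 ratio 0.05). Il6ra, the interleukin 6 receptor gene, had 267 at day 3 and 869.5 at day 0, a log2 ratio of −1.70, and its other probe set had −1.45 as a bound at the floor. Socs3, the feedback inhibitor that STAT3 induces, had 1070.4 at day 3 and 471 at day 0, a log2 ratio of 1.18. Its other probe sets had log2 ratios of 1.58 and 1.89. Stat3 itself had 3366 at day 3 and 2629 at day 0, a log2 ratio of 0.36. Il6 had no signal above the floor (26.0 at day 3 and 4.74 at day 0).

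Among the 67 genes of the wider iron lists with a promoter window, TTCNNNGAA occurred in those of 6: Hamp, Hamp2, Socs3, Steap4, Steap2 and Lrp1. It is held by 8.30% of all windows. GGCGCC occurred in those of 18 of the 67, beside 11.9% of all windows. Hamp shared the pair of motifs with Socs3, whose GGCGCC starts 61 bases before the start, and 0.645% of all windows hold both. A gene counted if any of its windows matched, whereas these shares are per window. The sites of Socs3 (minus strand, chr11:117969502-117969530) and Steap4 (plus strand, chr5:7960346-7960374) are shown beside those of the hepcidin genes above because their transcripts lay on the other side of 2-fold. Capitals mark the 9 bases of the site.
Socs3: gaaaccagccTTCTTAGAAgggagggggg
Steap4: ggttgaactcTTCCCGGAAactttgcttc

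Steap4, a metalloreductase that reduces iron and copper, had 9315 at day 3 and 2907 at day 0, a log2 ratio of 1.68 (3.20-fold higher). Its other probe set had 439 at day 3 and 268 at day 0, a log2 ratio of 0.71. Genes that hold a STAT-type site in this window were therefore found both higher (Socs3, Steap4) and lower (Hamp, Hamp2), and Steap2 and Lrp1 had log2 ratios of 0.66 and 0.39 on their brightest probe sets. A dimmer Lrp1 probe set had 533 at day 3 and 256 at day 0, a log2 ratio of 1.06. Nothing follows from this about STAT3 binding.

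**Figure D2:**
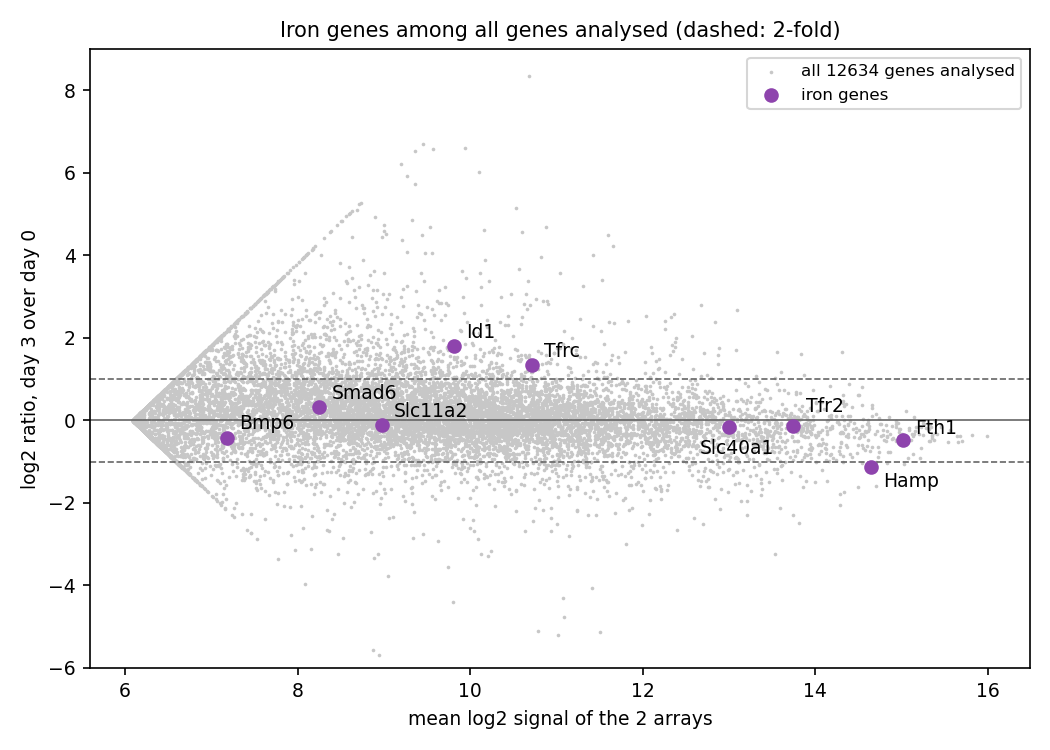
Log2 ratio, day 3 over day 0, against the mean log2 signal of both arrays for all 12634 genes analysed (grey) and the 9 iron genes (purple), with 2-fold as dashed lines; straight edges at low signal are genes under the floor on 1 array. Id1 and Tfrc lie above the upper dashed line and Hamp, among the brightest genes, below the lower one.

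Tfrc, the receptor through which most cells take up transferrin-bound iron, had 2671 at day 3 and 1057 at day 0 on its brightest probe set. The log2 ratio was 1.34 (2.53-fold higher), exceeded by 8.02% of all genes analysed. A second Tfrc probe set had 312 at day 3 and 145 at day 0, a log2 ratio of 1.11. The remaining Tfrc probe set of the main array content was under the floor on both arrays, with 27.3 at day 3 and 44.1 at day 0.

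The array also carries Tfrc as a control transcript, with a probe set at each end and 1 in the middle. The 3′ one had 139 at day 3 and 115 at day 0, a log2 ratio of 0.27. The middle one (24.7 at day 3, 7.33 at day 0) and the 5′ one (1.87 at day 3, 34.4 at day 0) were under the floor on both arrays and give no ratio. The 3′ to 5′ balance of control probe sets also differed between the arrays. For the bacterial poly-A RNAs spiked in ahead of labelling, the ratio of 3′ to 5′ signal was 1.32 to 2.90 times as high at day 3 in 8 of 8 pairs. These pairs are not independent, since the dap, lys, phe and thr RNAs are each read by more than 1 pair. For mouse controls the same figure was 2.09 for beta-actin, 1.91 for Gapdh, 0.99 for 18S RNA and 0.59 for pyruvate carboxylase. TrpnX, a control outside these pairs, had 0.13. The part of the 3′ to 5′ balance in the Tfrc values, or in those of any other gene described here, was not tested. Of the 3 Tfrc probe sets above the floor, all had log2 ratios above 0. Of these, 2 were at least 2-fold higher at day 3, and the 3′ control was under 2-fold.

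Tfrc is also abundant on erythroid precursors. Of 10 erythroid markers, 8 had a probe set and 5 of these were under the floor on both arrays. Of the 3 analysed, Alas2, the erythroid enzyme of heme synthesis, had 2783 at day 3 and 8932 at day 0, a log2 ratio of −1.68. Klf1, an erythroid transcription factor, had 47.6 at day 3, under the floor, and 274 at day 0, and was at least 4.01-fold lower. Slc4a1, the red cell anion exchanger, was measured above the floor at day 3 only (99.2, against 50.2 at day 0). The summed signal of the 3, most of it from Alas2, was 2930 at day 3 and 9256 at day 0. The part of erythroid cells in the Tfrc value was not tested.

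Slc11a2, the endosomal iron transporter DMT1, had 482 at day 3 and 523 at day 0 on its brightest probe set, a log2 ratio of −0.12. Its other 3 probe sets had log2 ratios of −0.06, 0.43 and 0.81, the last with 134 at day 3 and 76.1 at day 0. Slc11a2 thus showed no common direction, and the mean over its probe sets was 0.27. Transcripts of this gene with and without an iron-responsive element are known, but which of them each probe set reads was not analysed here.

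Of 11 genes listed for cellular iron uptake, 10 were analysed: 3 were higher (Tfrc, Steap4 and Scara5), none was lower and 7 were under 2-fold. Steap1 is among the 7 as a bound, being above the floor at day 3 only (99.6, against 24.8 at day 0). The list's median log2 ratio was 0.42. Scara5, a scavenger receptor that can take up ferritin, had 1119 at day 3 and 348 at day 0, a log2 ratio of 1.69 (3.22-fold higher), and another probe set close to the floor at 0.12. Slc39a14, the hepatocyte transporter for iron that is not bound to transferrin, had 5296 at day 3 and 4369 at day 0 on its brightest probe set, a log2 ratio of 0.28. A dimmer one had 395 at day 3 and 89.6 at day 0, a log2 ratio of 2.14, so its probe sets differ by more than 2-fold. Steap3, the ferrireductase that works with Tfrc in endosomes, had 128 at day 3 and 120.4 at day 0.

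Among storage transcripts, Fth1, the ferritin subunit that oxidises iron for storage, had 28044 at day 3 and 38940.2 at day 0 on its brightest probe set, a log2 ratio of −0.47. Its other probe set had 29440 at day 3 and 35528 at day 0, a log2 ratio of −0.27. As deposited, the first ratio lies within the range of the hepatocyte markers and the second just above it. The Fth1 value was −0.11 after quantile normalisation, −0.17 after loess and −0.18 with spike scaling. Of 6 genes listed for storage, 4 were analysed and none reached 2-fold on its brightest probe set. Their median log2 ratio was −0.43, and it was −0.18 after quantile normalisation and 0.05 without shared probe sets, which removes Fth1. Ncoa4, the receptor that carries ferritin to lysosomes for breakdown, had 3606 at day 3 and 4795 at day 0, a log2 ratio of −0.41, while its dimmer probe set had 952 at day 3 and 2139 at day 0, a log2 ratio of −1.17. Pcbp2, an iron chaperone that delivers iron to ferritin, had 9119.8 at day 3 and 12517 at day 0, a log2 ratio of −0.46. Ferritin and Tfrc are known to be controlled largely after transcription, by iron regulatory proteins that bind their mRNAs, and these arrays read mRNA only. The genes of those proteins and of their regulator Fbxl5 were all under 2-fold: Aco1 had 9283 at day 3 and 9396 at day 0, and Ireb2 had 2322 at day 3 and 3768 at day 0, a log2 ratio of −0.70.

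Slc40a1, ferroportin, the exporter that hepcidin acts on, had 7760.3 at day 3 and 8671 at day 0 on its brightest probe set, a log2 ratio of −0.16. The other probe set had 2655 at day 3 and 3816 at day 0, a log2 ratio of −0.52. Neither reached 2-fold, and with the spikes as the scale the brightest had 0.13. Ferroportin is made by both Kupffer cells and hepatocytes. Kupffer cell markers were higher in 5 of 8 and above 0 in 8 of 8 (median log2 ratio 1.06), with a summed signal of 21429 at day 3 and 8406 at day 0. The marker with the highest ratio was Marco, a scavenger receptor gene, with 3426 at day 3 and 366 at day 0. Their part in the Slc40a1 value was not tested. Of the 4 listed genes of export, 3 were analysed and none reached 2-fold as computed. For Heph the value is a bound, since it was above the floor at day 3 only (83.0, against 21.8 at day 0). Cp, the plasma ferroxidase ceruloplasmin, had 36698 at day 3 and 31338 at day 0, a log2 ratio of 0.23. Its other 7 probe sets had log2 ratios from −0.14 to 1.73, the last with 565 at day 3 and 170.4 at day 0, so they disagree.

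**Figure D3:**
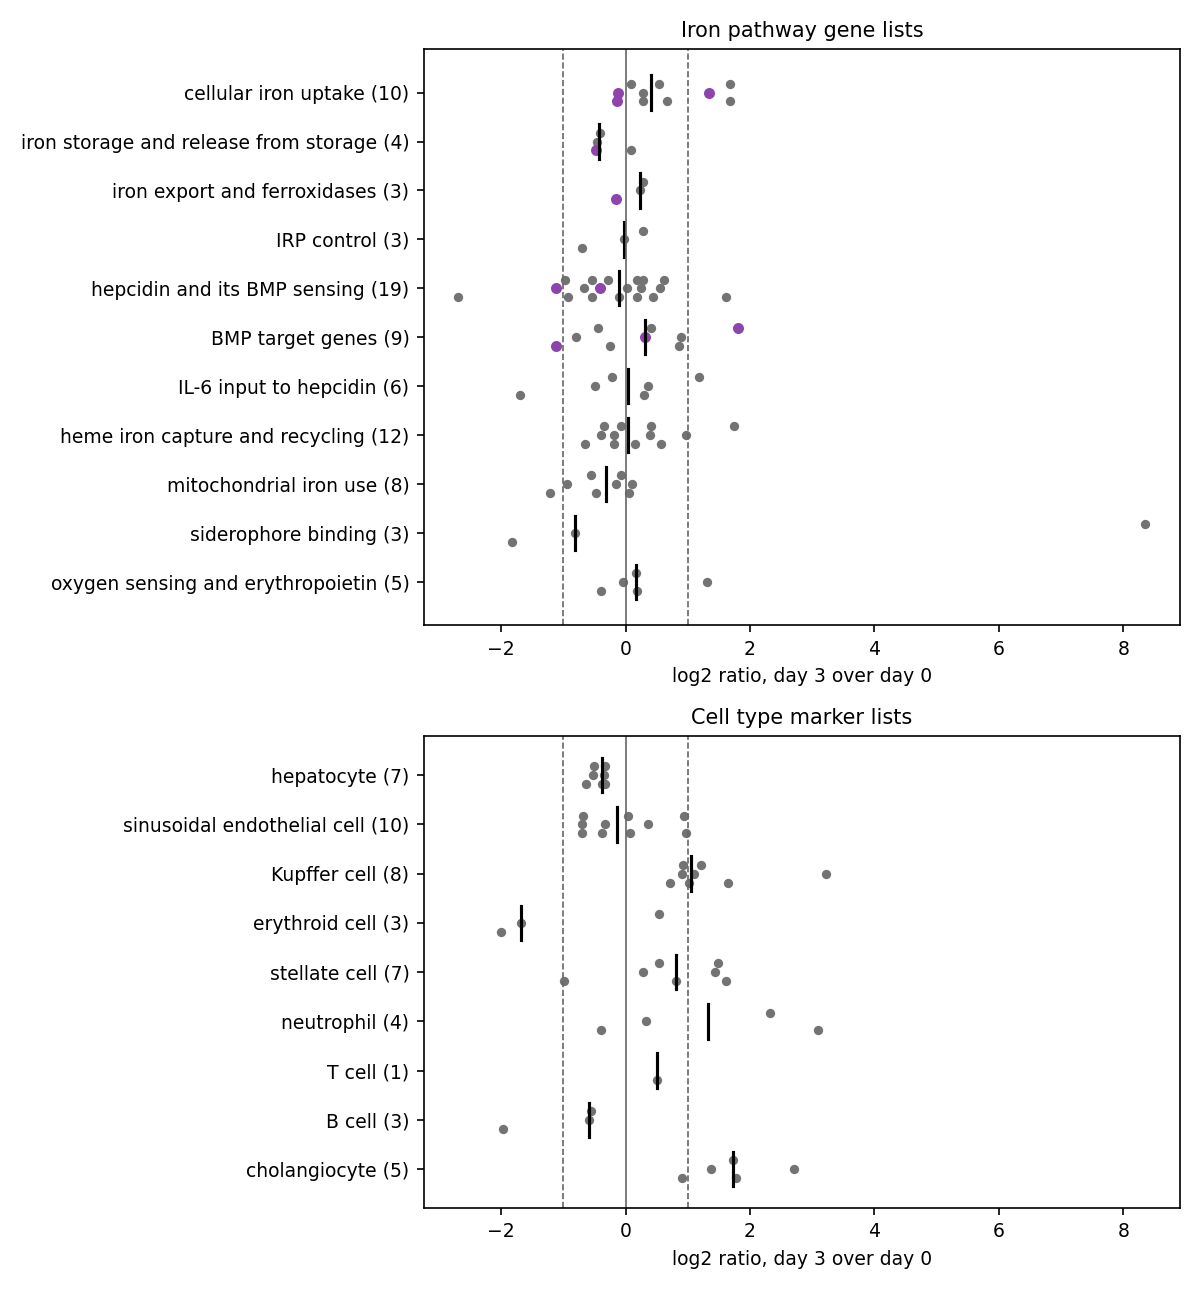
Log2 ratio, day 3 over day 0, of each analysed gene in the iron lists (top) and the cell type marker lists (bottom), with the number of genes in brackets, black bars for medians, purple points for the 9 iron genes and dashed lines at 2-fold; genes under the floor on 1 array are drawn at their bound. Most iron genes lie between the dashed lines, Lcn2 lies far to the right at 8.36, and all 8 Kupffer cell markers lie above 0.

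Heme is the other large source of iron in liver. Of 12 genes of heme capture and recycling, Hmox1 was higher, none was lower and 11 were under 2-fold (median log2 ratio 0.04). Hmox1, the inducible heme oxygenase that frees iron from heme, had 1002.3 at day 3 and 301 at day 0, a log2 ratio of 1.74. Of 10 genes of mitochondrial iron use, 8 were analysed, and Iscu, the scaffold on which iron-sulfur clusters are built, was lower with 5342 at day 3 and 12389 at day 0, a log2 ratio of −1.21. The other 7 were under 2-fold and the median was −0.31.

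Among 3 analysed genes of siderophore binding, Lcn2, lipocalin 2, which withholds iron from bacteria, had 29724 at day 3 and 90.7 at day 0, the highest ratio of all iron genes listed (log2 ratio 8.36). Bdh2, an enzyme proposed to make a mammalian siderophore, had 400.1 at day 3 and 1425 at day 0, a log2 ratio of −1.83. Neutrophils also make Lcn2. Of 7 neutrophil markers with a probe set, 4 were analysed and 2 were higher, S100a9 with 549.65 at day 3 and 110.3 at day 0, and S100a8 at least 8.57-fold. Elane had 111 at day 3 and 87.8 at day 0, and Ngp had 57.7 at day 3, under the floor, and 90.0 at day 0. The summed signal of the 4, most of it from S100a8 and S100a9, was 1303 at day 3 and 349 at day 0, and their part in the Lcn2 value was not tested. Of 5 analysed genes of oxygen sensing, Egln3, an oxygen-dependent hydroxylase that targets hypoxia-inducible factors, was higher with 1405 at day 3 and 569.65 at day 0, a log2 ratio of 1.30. A dimmer Egln3 probe set had −0.41, and the other 4 genes were under 2-fold.

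Counting each gene of the wider iron lists once and leaving out the 9 described first, 72 were analysed. Of these, 7 were higher, 4 lower and 61 under 2-fold, the last with Heph, Steap1, Bmper and Slc22a17 at their bounds. These counts stand beside the background shares of 12.9% and 5.62%, and the median log2 ratio of the 72 was 0.07, against 0.08 for all genes. With the 9 included, 41 of 81 log2 ratios were above 0 and 40 below. Among the marker lists not given above, 3 of 7 analysed stellate cell markers and 4 of 5 cholangiocyte markers were higher, 1 of 3 B cell markers was lower, and 4 of the 5 T cell markers with a probe set were under the floor on both arrays.

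**Figure D4:**
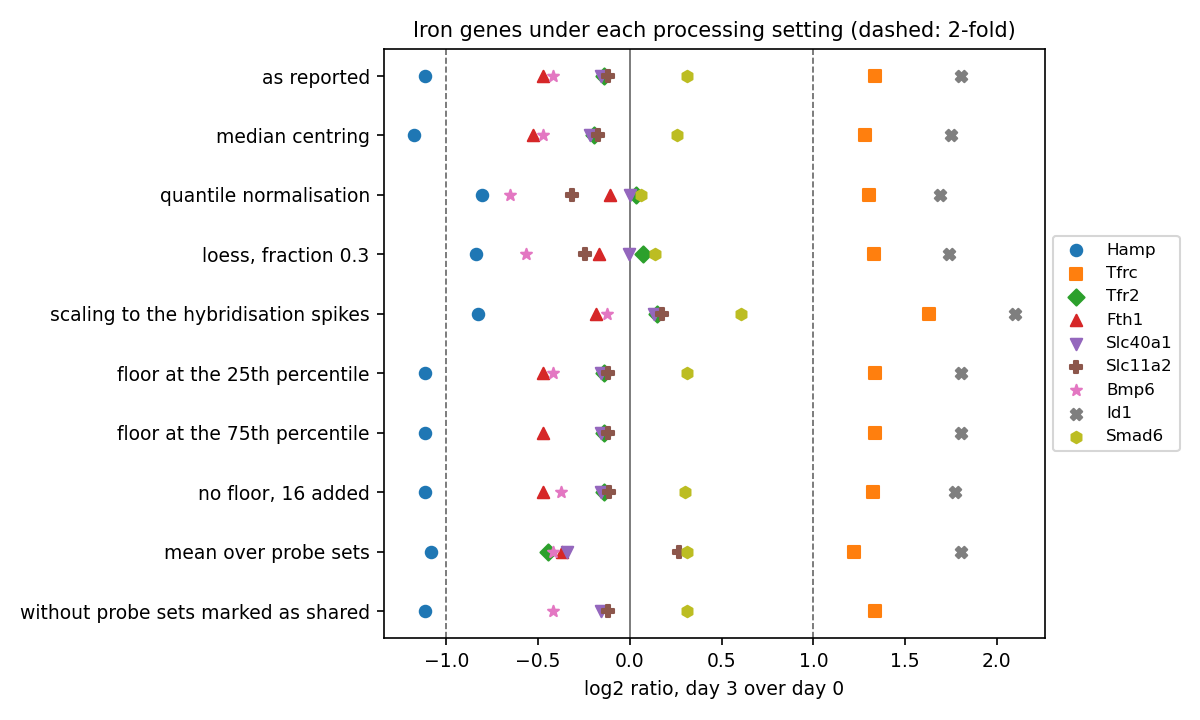
Log2 ratio, day 3 over day 0, of the 9 iron genes as reported and under 9 processing alternatives (rows), with dashed lines at 2-fold. Tfrc and Id1 stay above 2-fold in each row that has a value for them. Hamp stays below 0 and falls short of 2-fold in 3 rows, and Tfr2, Slc40a1 and Slc11a2 lie on both sides of 0.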

How the data were processed

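The authors deposited 1 table with a linear intensity for each probe set, and the submitters' processing notes name GCOS and MAS5 without versions. Their scaling target is not given in the sources used here, and detection calls were not used. RNA was extracted with Trizol and 5 µg was labelled, per the labels' protocols. The trimmed mean (2% at each end) was 500.0 on both arrays, as scaling each array to 500 would give. With 1 array per day the precision of the ratios is not known. Of 45101 probe sets, 34945 had 1 gene symbol in the array annotation, 932 several, 9160 none and 64 were controls, of which 3 carry Tfrc.

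Signals were used as deposited. Those under the floor (the higher array median, 68.3) were set to it, log2 was taken, and probe sets under it on both arrays were dropped. A bound on a gene under the floor on 1 array is written as at least that fold. The 10 genes, the wider lists and the markers come from textbook knowledge and were chosen with earlier results of these data known. The naming rule took the 10 genes with every probe set, and of each other list up to 4 genes past 2-fold in each direction or, with none, up to 2 of the brightest. No gene was named for a like pattern, since 2 arrays give 1 ratio. Motifs were searched in RefSeq promoter windows (GRCm38.p6). CAGTGN, the loop of iron-responsive elements, was searched in the 50 bases after each start only. Among the 6 iron genes with a window it matched Tfr2, against 7.08% of all windows. The rest of each transcript was not searched and the other iron genes had no window. The search therefore cannot tell which iron genes hold such an element, and a match shows letters only. Genes named with less than a 2-fold difference, other than the 10, Aco1, Ireb2, Cp and Pcbp2, as well as Il6 and the single markers, fall outside this rule and were chosen after their values were seen. Recovery of known ratios was tested on simulated data. Python 3.11.15, numpy, pandas and statsmodels were used.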

Additional observations from a re-analysis of the deposited data

How the results depend on the processing

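No paired analysis was possible because each day has 1 array. Results were recomputed with 4 other scalings (loess at a fraction of 0.3, quantile normalisation, median centring, hybridisation spikes), with the floor at the 75th or 25th percentile or replaced by an added 16, with all probe sets of a gene averaged, with shared probe sets left out, and at 4-fold and 1.5-fold. Tfrc kept a log2 ratio between 1.22 and 1.63 in 9 settings and Id1 one between 1.69 and 2.10 in 8, while Hamp ranged from −1.17 to −0.81 and kept its side of 2-fold in 6 of 9. With spike scaling the median over all genes was 0.36, and Hamp relative to that median was −1.19 with spikes, −0.89 with loess and −0.81 with quantile scaling, against −1.20 as reported. The number of the 9 iron genes at least 2-fold lower was 0 with the spike, loess and quantile scalings. The number higher was 1 without shared probe sets, where Id1, Tfr2 and Fth1 have no value and 6 genes remain. At 4-fold both numbers were 0. Over all iron lists, 9 genes were higher and 5 lower as reported. These were 14 higher with the floor at the 25th percentile and 3 lower after spike scaling. Over all genes, 14.7% were higher with that floor and 3.10% lower with that scaling. At 1.5-fold 14 list genes were higher and 13 lower, beside 24.0% and 14.2% of all genes. At 4-fold 1 was higher and 1 lower, beside 3.27% and 0.760% of all genes. With the floor at the 75th percentile Bmp6 and Smad6 have no value. Tfr2 kept its sign in 5 of 8 settings, and Slc40a1 and Slc11a2 in 7 of 9 each. Counts over all genes moved too: 574 to 2412 were higher and 380 to 1834 lower across scalings and floors. Bmp6, at 125 and 167 on the arrays of day 3 and day 0, is the iron gene whose signal lies nearest to the floor.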
